A study of Mus musculus with 564 samples.

Results

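Acetylation was followed at 9 genes that write, erase or oppose the acetyl mark on lysine 27 of histone H3, in mouse bone marrow-derived macrophages (BMDMs), primary cells grown from bone marrow. They were Ep300 and Crebbp, the acetyltransferases p300 and CBP; Ezh1 and Ezh2, the methyltransferases of the same lysine; Kdm6b, a demethylase of it; and Hdac4, Hdac5, Hdac7 and Hdac9, the class IIa histone deacetylases. Their members were the cis-regulatory elements (CREs) of the normalized table whose centre lies within 25 kb of an mm10 RefSeq transcription start of 1 of these 9 genes, predicted transcripts included. This gave 73 of 59190 CREs: 19 at Hdac9, 16 at Hdac4, 8 at Kdm6b, 7 each at Hdac5 and Hdac7, 5 each at Ezh1 and Ep300, 4 at Crebbp and 2 at Ezh2. A CRE is named here by its gene and by the distance in bp from the nearest start of that gene to its centre, negative upstream. The rule used position alone, so 8 CREs lay nearer to the start of another protein-coding gene, 3 at Kdm6b, 3 at Hdac5 and 1 each at Ezh1 and Hdac7.

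Acetylated H3K27 (H3K27ac) was measured by ChIP-seq in 564 libraries of wild type BMDMs. The mice were young adult male C57/BL6, and the question was how clinical kinase inhibitors (CKIs) alter the regulatory response of these cells. Cells received DMSO, the vehicle, or 1 of 58 CKIs for 1 h, and were then left unstimulated (UT) or treated with LPS, a lipopolysaccharide that signals through TLR4, or with interleukin 4 (IL-4), each at 10 ng/mL for 30 min, 1 h, 2 h or 4 h. DMSO had 2 libraries for each of its 9 groups, while 474 of the CKI groups had 1 library and 36 had 2. All groups share the same genotype and the same solvent, and the labels do not say whether libraries of a group came from separate cultures, so the spread between them may be technical.

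H3K27ac marks active promoters and enhancers and cannot coexist with methylation on the same lysine. p300 and CBP place the acetyl group and EZH1 or EZH2, as the catalytic subunits of the Polycomb repressive complex PRC2, place the methyl groups that Kdm6b (JMJD3) removes. Class IIa deacetylases have little catalytic activity of their own, bind MEF2 transcription factors and corepressors, and leave the nucleus when kinases phosphorylate them. Kdm6b is known in macrophages as a gene induced both by LPS, through NF-kB, and by IL-4, through STAT6. Every value here is acetylation at a CRE and not RNA or protein of the gene, and in bulk chromatin fewer cells with a mark and less mark per cell cannot be told apart.

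The CREs on which the results turn are shown by their central 300 bases, read from the plus strand of GRCm38.p6 (the mm10 reference). The first pair carried the largest IL-4 differences of all members, the second pair the largest LPS gains, the next CRE the largest LPS loss, and the last had LPS and IL-4 differences of opposite sign. Capitals mark a match, on either strand, to TTC and GAA with 4 bases between them (the spacing STAT6 prefers) or to GGANTTTCC (an NF-kB motif), and the search also covered GAAANNGAA (IRF), TGANTCA (AP-1) and GAGGAAGT (PU.1).
Kdm6b -8874 (chr11:69429092-69429391): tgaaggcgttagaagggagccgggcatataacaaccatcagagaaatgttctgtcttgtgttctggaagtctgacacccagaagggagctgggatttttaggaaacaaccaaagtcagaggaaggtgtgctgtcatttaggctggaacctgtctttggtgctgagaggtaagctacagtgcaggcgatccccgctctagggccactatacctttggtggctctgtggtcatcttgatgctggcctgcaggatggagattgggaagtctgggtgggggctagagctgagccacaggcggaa
Hdac9 -17979 (chr12:34547209-34547508): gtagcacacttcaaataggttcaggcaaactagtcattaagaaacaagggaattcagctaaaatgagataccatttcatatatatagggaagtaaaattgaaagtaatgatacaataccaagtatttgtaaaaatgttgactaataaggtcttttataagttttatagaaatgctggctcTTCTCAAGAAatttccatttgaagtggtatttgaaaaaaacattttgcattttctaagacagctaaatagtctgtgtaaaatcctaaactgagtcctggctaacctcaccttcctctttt
Hdac9 -7821 (chr12:34844924-34845223): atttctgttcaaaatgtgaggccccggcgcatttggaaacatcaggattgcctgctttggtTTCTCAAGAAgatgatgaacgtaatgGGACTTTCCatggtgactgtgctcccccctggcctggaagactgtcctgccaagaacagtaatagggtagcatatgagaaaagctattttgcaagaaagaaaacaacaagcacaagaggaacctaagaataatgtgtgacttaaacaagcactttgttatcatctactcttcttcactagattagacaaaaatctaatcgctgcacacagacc
Hdac9 +8867 (chr12:34828236-34828535): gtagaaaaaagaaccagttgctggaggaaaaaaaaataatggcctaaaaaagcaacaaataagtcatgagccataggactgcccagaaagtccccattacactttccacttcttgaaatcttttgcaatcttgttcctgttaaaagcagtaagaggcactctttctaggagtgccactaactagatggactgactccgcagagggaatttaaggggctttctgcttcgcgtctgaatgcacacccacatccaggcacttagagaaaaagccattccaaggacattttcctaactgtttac
Ep300 -17350 (chr15:81568710-81569009): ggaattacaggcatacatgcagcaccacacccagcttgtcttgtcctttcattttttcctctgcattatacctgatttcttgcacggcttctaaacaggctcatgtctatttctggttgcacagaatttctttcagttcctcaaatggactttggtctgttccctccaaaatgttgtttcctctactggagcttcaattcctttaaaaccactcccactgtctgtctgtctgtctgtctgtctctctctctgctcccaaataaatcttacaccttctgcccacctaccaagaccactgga
Hdac5 +10908 (chr11:102218848-102219147): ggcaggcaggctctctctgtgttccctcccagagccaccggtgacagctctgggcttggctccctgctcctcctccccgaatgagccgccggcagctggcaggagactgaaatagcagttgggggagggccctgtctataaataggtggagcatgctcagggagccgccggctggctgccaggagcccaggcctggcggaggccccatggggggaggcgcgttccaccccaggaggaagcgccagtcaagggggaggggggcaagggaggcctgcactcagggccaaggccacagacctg
Hdac9 -17979 holds the STAT6 spacing once, and Hdac9 -7821 holds both that spacing and the NF-kB motif. The other 4 windows hold none of the 5 motifs. Over all 73 members the STAT6 spacing was found in 7 CREs (9.59%), against 9.21% of the 59190 CREs, and the NF-kB motif in 2 (2.74%), against 2.36%. The IRF, AP-1 and PU.1 motifs were found in 6, 11 and 6 members, with 11.5%, 20.2% and 9.11% of all CREs holding them. None of the motifs overlapped another in these windows, and a match is a description of letters and not a bound site.

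The macrophage label was checked at promoter CREs, those within 1 kb of a protein-coding start, with values per kb of CRE in the 2 DMSO UT libraries. Of 10 macrophage markers, 7 had a promoter CRE, at 102 to 370 normalized reads per kb (median 244), against a median of 68.4 over 11537 promoters. No promoter CRE of the T cell or B cell markers was in the table (0 of 4 each), and the neutrophil, dendritic cell and stromal markers with a CRE lay between 2.19 and 7.57 per kb. Reads in CREs, by estimate, numbered 2346043 to 5406531 per DMSO library and 173056 to 6581857 per CKI library, in the 16 DMSO and 535 CKI libraries where the value of 1 read could be estimated. The shallowest was the LPS 30 min library of PH797804, a p38 inhibitor, with 12451 CREs at 0. Values are normalized read counts as the authors scaled and rounded them.

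In resting cells the promoter CREs of these genes covered a wide range of levels. On the per kb scale in DMSO UT, the order was Kdm6b +611 at 163 ± 1.91 (SD, n = 2), Ep300 +46 at 148 ± 9.87, Hdac5 -112 at 143 ± 13.5, Hdac7 +835 at 105 ± 1.55, Ezh2 +115 at 76.7 ± 12.9, Ezh1 +30 at 58.6 ± 4.67, Crebbp +65 at 30.7 ± 2.45, Hdac9 +2 at 15.8 ± 1.72 and Hdac4 -224 at 4.55 ± 0.920. The ranges of the replicates overlapped for Ep300 and Hdac5. Kdm6b, Ep300 and Hdac5 lay at the 91.9th, 88.9th and 87.5th percentile of promoters, and Hdac9 +2 at the 12.9th. At Hdac4, Kdm6b and Hdac7 the choice depends on the transcripts counted. Hdac4 -224 sits at predicted starts, and the CRE that holds the curated Hdac4 start is Hdac4 -263, at 88.2 ± 1.58 per kb. At Kdm6b the curated start lies between Kdm6b -692, whose centre is at -2638 bp from it, and Kdm6b +611, whose centre is at 5908 bp, and neither CRE contains it. Per kb, Kdm6b -692 stood at 61.9 ± 5.96. Hdac7 +835 sits at predicted starts, with its centre 6770 bp from the nearest curated one, and no member CRE contains a curated Hdac7 start.

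LPS changed about every second member CRE, and losses outnumbered gains. Of the 64 members tested in DMSO, 13 (20.3%) rose and 20 (31.2%) fell, against 29.0% and 24.6% of the 50697 CREs tested. A CRE was called when the moderated F-test of limma over the 4 times against UT gave an adjusted p under 0.01 and the log2 difference exceeded 1 in size at 1 or more times. The median of the largest log2 difference was -0.54 over the members and 0.37 over all CREs. Of the 20 CREs that fell, the largest difference came at 2 h in 9, at 4 h in 5 and at 30 min and 1 h in 3 each, and of the 13 that rose it came at 4 h in 6, at 2 h in 5, at 30 min in 1 and at 1 h in 1.

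IL-4 changed fewer of them. Of 62 members tested, 7 (11.3%) rose and 5 (8.1%) fell, against 13.6% and 11.0% of 47018 CREs, and the median of the largest log2 difference was 0.32 over the members and 0.21 over all CREs. After quantile normalization, another scaling, the split was 5 higher and 7 lower. Hdac4 -11795 rose after both stimuli, and Hdac4 -2323, Hdac4 +13321 and Hdac4 +15585 fell after both. The 2 time courses share their UT libraries. In all 33 CREs called after LPS and all 12 called after IL-4, the replicates at the time of the largest difference did not overlap those of UT. These CREs were picked by the size of that same difference, so the separation follows largely from the rule and adds no support to the calls.

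**Figure D1:**
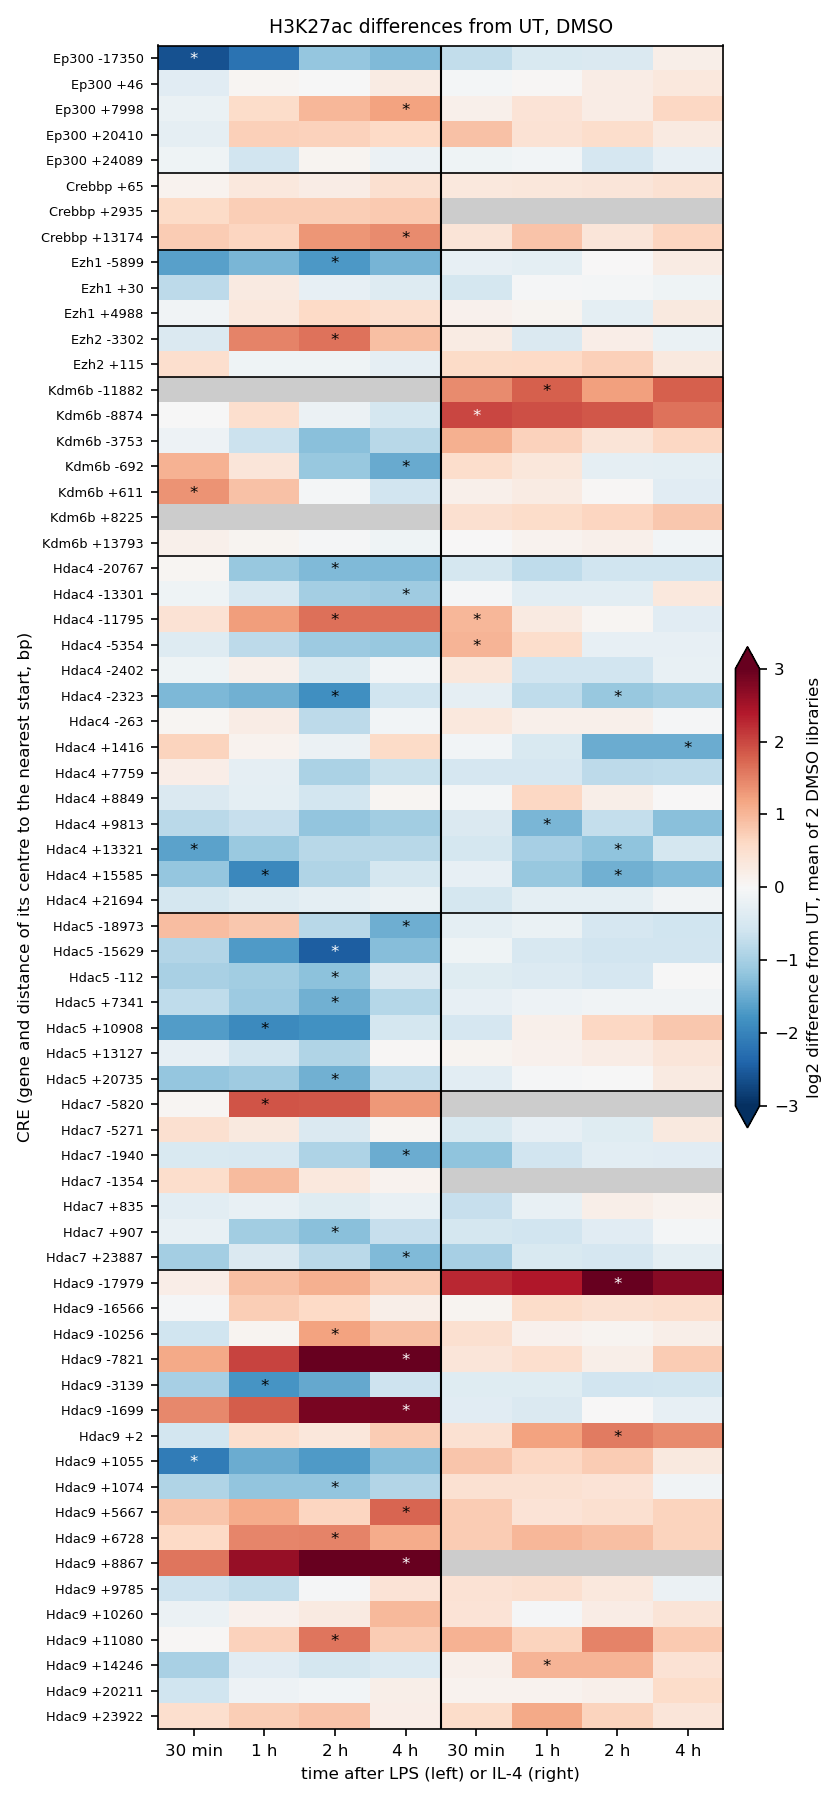
Difference of the DMSO means from UT (log2 of value + 5, colour) for each tested member CRE (rows, by gene) at 4 times after LPS (left) and IL-4 (right). Stars mark the time of the largest difference of called CREs, colours saturate at 3 in either direction, and grey means not tested. Blue prevails among the Hdac4 and Hdac5 rows after LPS, and the strongest reds are Hdac9 +8867 and Hdac9 -7821 after LPS and Hdac9 -17979 after IL-4.

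Among the acetyltransferases, the largest change was a loss upstream of Ep300 while its promoter stayed below the call. Ep300 -17350, an intergenic CRE at chr15:81568057-81569662, held 187 and 181 normalized reads in UT and 18 and 37 at 30 min of LPS, 33 and 39 at 1 h, 71 and 89 at 2 h and 70 and 71 at 4 h. Every LPS library lay below both UT libraries, and the lowest values came first. The log2 difference at 30 min was -2.60 (SE 0.26, adjusted p = 2.96e-10) and at 4 h -1.32 (SE 0.26). After IL-4 the values were 131 and 89 at 30 min and 190 and 228 at 4 h, with a largest difference of -0.74 (SE 0.16), below the fold threshold. The promoter Ep300 +46 (605 and 665 in UT) held 449 and 556 at 30 min and 708 and 813 at 4 h of LPS, and its largest difference was -0.34 (SE 0.11). Ep300 +7998, inside the gene, rose from 51 and 30 to 78 and 120 at 4 h, by 1.20 (SE 0.26, adjusted p = 2.17e-05). No IL-4 difference at Ep300 was called, and the largest was 0.89 (SE 0.38, adjusted p = 0.274) at the intronic Ep300 +20410.

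Crebbp moved less. Its promoter Crebbp +65 held 100 and 112 in UT and between 108 and 163 in the 8 LPS libraries, a largest difference of 0.48 (SE 0.19, adjusted p = 0.139). The intronic Crebbp +13174 went from 9 and 8 to 38 and 25 at 4 h, a rise of 1.41 (SE 0.38, adjusted p = 0.00762). That call was lost with a pseudocount of 1, after quantile normalization and when either library of UT, 2 h or 4 h was left out. IL-4 gave no call at Crebbp, with adjusted p of 0.128 at the promoter and 0.319 at Crebbp +13174.

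The methyltransferase genes each had 1 CRE called after LPS, in opposite directions and neither at a promoter. Ezh1 -5899, intergenic, held 167 and 160 in UT and between 39 and 74 in all 8 LPS libraries, a fall that reached -1.71 at 2 h (SE 0.25, adjusted p = 7.73e-07). In IL-4 the same CRE held 120 to 202. The intronic Ezh2 -3302 held 12 and 8 in UT, 5 and 7 at 30 min, 38 and 35 at 1 h and 35 and 48 at 2 h, a rise of 1.63 (SE 0.34, adjusted p = 2.15e-06) that was not seen at 30 min. The promoter Ezh1 +30 held 92 and 103 in UT, with a largest difference of -0.79 after LPS and -0.54 after IL-4. Ezh2 +115 held 181 and 230 in UT and 248 to 345 in all 8 IL-4 libraries, above UT in each, with a largest difference of 0.71 (SE 0.12, adjusted p = 1.25e-05) that did not pass the fold threshold.

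Kdm6b, the demethylase, had calls after both stimuli, at different CREs. Kdm6b +611 (chr11:69407886-69412687) held 778 and 791 in UT, 2039 and 1989 at 30 min of LPS, 1493 and 1402 at 1 h, 796 and 723 at 2 h and 511 and 543 at 4 h. Acetylation was highest at the first time, was back among the UT values at 2 h and lay below them at 4 h. The log2 differences were 1.35 at 30 min, 0.88 at 1 h, -0.05 at 2 h and -0.57 at 4 h (SE 0.09 each, adjusted p = 3e-19). Kdm6b -692, on the other side of the curated start, was also highest at 30 min, with 259 and 226 in UT and 498 and 514 then, but lay below UT already at 2 h, at 99 and 116, and held 81 and 82 at 4 h. It is counted among the CREs that fell because its largest difference was -1.51 at 4 h, while at 30 min it was 1.05 (SE 0.16 each, adjusted p = 1.54e-16). In IL-4 Kdm6b +611 lay above UT at 30 min (937 and 821) and 1 h (1021 and 863). It lay below UT at 4 h (607 and 633), where its largest difference was -0.34. Kdm6b -692 also lay above UT in IL-4, with 383 and 317 at 30 min and 305 and 306 at 1 h. Its difference at 30 min was 0.52 (SE 0.13), below the fold threshold, and it lay below UT at 2 h and 4 h.

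The called IL-4 gains lay upstream. Kdm6b -8874, at chr11:69428140-69430342 in an intron of the neighbouring gene Dnah2, held 61 and 56 in UT, 279 and 226 at 30 min of IL-4, 231 and 245 at 1 h, 245 and 210 at 2 h and 207 and 178 at 4 h. Every IL-4 library lay above both UT libraries. The difference was 2.01 at 30 min and 1.63 at 4 h (SE 0.15 each, adjusted p = 5.02e-17). In LPS this CRE held 35 to 91, with no call. Kdm6b -11882, the next CRE upstream, rose from 6 and 2 to 20 and 32 at 1 h of IL-4, by 1.79 (SE 0.37, adjusted p = 0.000165). Kdm6b -3753, between these and the gene, held 37 and 23 in UT and 76 and 59 at 30 min of IL-4, and was not called (adjusted p = 0.012).

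**Figure D2:**
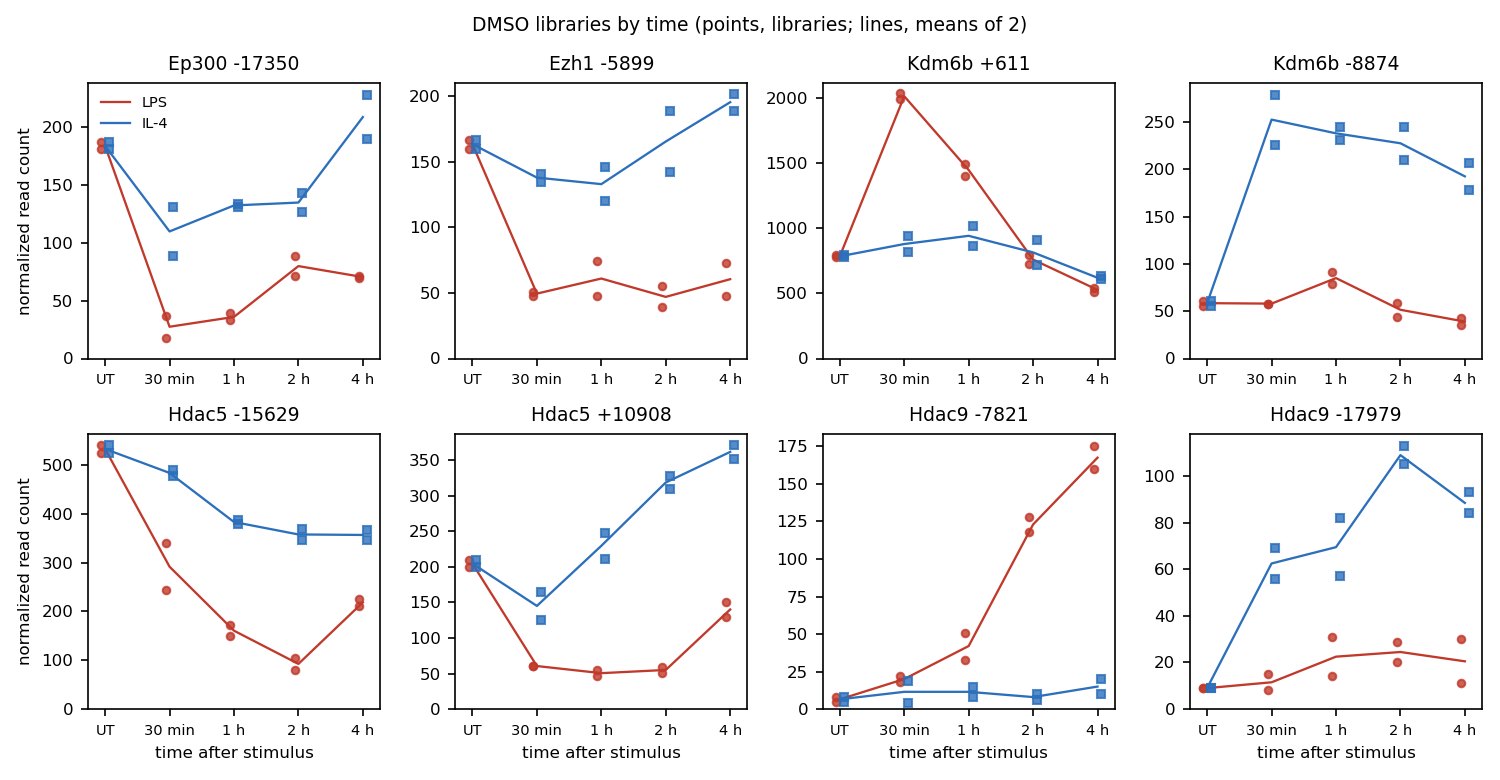
Normalized read counts (y axis, from 0) of 8 CREs in each DMSO library (points) and their means (lines), in UT and at 4 times after LPS (red circles) and IL-4 (blue squares); the UT libraries are the same for both. Ep300 -17350, Ezh1 -5899 and Hdac5 -15629 lie lower in LPS than in IL-4 at every time, Kdm6b +611 peaks at 30 min of LPS, and Kdm6b -8874 and Hdac9 -17979 are high in IL-4 alone of these 2 stimuli.

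Of the class IIa deacetylases, Hdac5 lost acetylation most widely. After LPS 6 of its 7 CREs fell, among them the promoter, and none rose, where 24.6% of all CREs tested fell and 29.0% rose. Of these 6, Hdac5 -18973 and -15629 lay nearer to the start of Hrob, and Hdac5 +20735 nearer to that of G6pc3. Hdac5 -15629, intergenic at chr11:102244315-102247288 and nearer to the start of Hrob, went from 524 and 541 in UT to 340 and 243 at 30 min, 172 and 149 at 1 h, 81 and 104 at 2 h and 225 and 212 at 4 h. Each LPS library lay below UT, with the low point at 2 h at -2.47 (SE 0.17, adjusted p = 4.2e-14). The promoter Hdac5 -112 went from 270 and 236 to 118 and 92 at 2 h, by -1.24 (SE 0.18, adjusted p = 6.53e-07), and was at 179 and 191 at 4 h. Hdac5 -18973, next to the start of Hrob, first held more, 178 and 178 at 30 min against 92 and 90 in UT, and then fell to 38 and 23 at 4 h.

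The intronic Hdac5 +10908 separated the stimuli. It held 209 and 200 in UT, 61 and 60 at 30 min of LPS, 46 and 55 at 1 h, 59 and 51 at 2 h and 130 and 150 at 4 h. In IL-4 it held 165 and 125, 248 and 211, 309 and 328, and 371 and 352 at the same times. The LPS libraries lay below UT throughout, while the IL-4 libraries lay below UT at 30 min and above it from 1 h. The LPS difference reached -1.92 (SE 0.21, adjusted p = 1.05e-10), and the IL-4 difference reached 0.81 (SE 0.13, adjusted p = 2.07e-11), below the fold threshold. Tested directly, the difference of LPS minus IL-4 at 2 h was -2.43 (SE 0.17, adjusted p = 6.46e-16). No Hdac5 CRE was called after IL-4.

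At Hdac4, 5 of 14 tested CREs fell and 1 rose after LPS, and 5 fell and 2 rose after IL-4. Hdac4 -20767, an intergenic CRE, held 552 and 554 in UT, 551 and 600 at 30 min of LPS and 259 and 238 at 1 h, and then 211 to 224 in the other 4 LPS libraries. At 30 min its libraries still straddled UT, and its largest difference was -1.33 at 2 h (SE 0.13, adjusted p = 6.7e-14). Hdac4 +15585 went from 66 and 69 to 12 and 16 at 1 h of LPS (-1.94, SE 0.30, adjusted p = 9.84e-06) and to 21 and 22 at 2 h of IL-4 (-1.45, SE 0.27, adjusted p = 5.3e-06). Hdac4 +1416 fell after IL-4, from 31 and 39 to 5 and 15 at 4 h (-1.49, SE 0.35, adjusted p = 7.59e-05), and held 57 and 51 at 4 h of LPS. Hdac4 -263, with the curated start, held 200 and 195 in UT and 102 and 125 at 2 h of LPS, a difference of -0.78 (SE 0.18) that was not called. Hdac4 -224 held 2 to 15 in every DMSO library and was below the level for testing.

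At Hdac7, 3 of 7 CREs fell and 1 rose after LPS, and none was called after IL-4. Hdac7 +23887, in an intron of Slc48a1 and nearer to the start of that gene, went from 579 and 578 to 230 and 224 at 4 h of LPS (-1.33, SE 0.13, adjusted p = 2.81e-10), and to 314 and 263 at 30 min of IL-4, where its difference of -0.997 (SE 0.11) did not pass the threshold. Hdac7 -5820 held 5 and 3 in UT, 3 and 6 at 30 min and 26 and 30 at 1 h of LPS, a rise of 1.88 (SE 0.38, adjusted p = 7.39e-06). Hdac7 -1940 went from 27 and 27 to 5 and 8 at 4 h (-1.49, SE 0.37, adjusted p = 0.00723), a call that was lost with a pseudocount of 1 and when either library of UT or 4 h, or the second of 1 h, was left out. Hdac7 +835, the CRE at predicted starts, with 283 and 289 in UT, held 173 and 176 at 30 min of IL-4 and 309 and 335 at 2 h, with a largest difference of -0.70 (SE 0.12) and no call.

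Hdac9 held the largest gains of all members, and the largest gain lay at a different place after each of the 2 stimuli. Of 18 tested CREs, 7 rose and 3 fell after LPS, and 3 of 17 rose and none fell after IL-4. The 4 CREs Hdac9 -10256, -7821, -1699 and +8867 rose after LPS within 20.7 kb of each other, at chr12:34827601-34848321, inside the longest Hdac9 transcripts and around a predicted internal start. Hdac9 +8867 held 3 and 5 in UT, 18 and 27 at 30 min, 51 and 48 at 1 h, 134 and 126 at 2 h and 141 and 170 at 4 h. Hdac9 -7821 held 8 and 5, 18 and 22, 51 and 33, 118 and 128, and 160 and 175 at these times. In both, the values of each LPS time lay above all those of the time before it. The differences at 4 h were 4.16 (SE 0.27, adjusted p = 1.35e-15) and 3.92 (SE 0.28, adjusted p = 8.24e-15). Hdac9 -1699 rose by 2.86 (SE 0.27), from 11 and 14 to 117 and 127 at 4 h, and Hdac9 -10256 by 1.20 (SE 0.30), from 25 and 27 to 65 and 67 at 2 h. The other 3 LPS gains were smaller. Hdac9 +5667 rose by 1.76 (SE 0.39), from 7 and 6 to 30 and 38 at 4 h, and Hdac9 +6728 and Hdac9 +11080, which lie 7.27 and 11.6 kb downstream of the curated start of the short transcript, by 1.48 (SE 0.35) and 1.60 (SE 0.42) at 2 h. In the 8 IL-4 libraries Hdac9 -7821 held 4 to 20 and Hdac9 +8867 held 6 to 15.

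After IL-4 the 3 called gains lay around the start of the short Hdac9 transcript, the same stretch that held the LPS gains Hdac9 +6728 and +11080. Hdac9 -17979, at chr12:34546549-34548167 in an intron, held 9 and 9 in UT, 69 and 56 at 30 min of IL-4, 57 and 82 at 1 h, 105 and 113 at 2 h and 93 and 84 at 4 h. All IL-4 libraries lay far above UT, by 3.02 at 2 h (SE 0.24, adjusted p = 4.06e-15). In LPS it held 8 to 31, with a largest difference of 1.06 (SE 0.41, adjusted p = 0.0706). The promoter Hdac9 +2, which contains the curated start of the short transcript, went from 35 and 30 to 103 and 107 at 2 h of IL-4 (1.56, SE 0.21, adjusted p = 1.21e-08), and Hdac9 +14246 rose by 1.01. No member CRE contains the upstream curated start.

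Other Hdac9 CREs fell. Hdac9 +1055 and Hdac9 +1074, which lie side by side downstream of predicted starts and between the other 2 places, held 99 and 103 and 288 and 276 in UT. At 30 min of LPS they held 18 and 22 and 147 and 150. The differences reached -2.09 (SE 0.28, adjusted p = 5.54e-07) and -1.19 (SE 0.18, adjusted p = 1.63e-06). In IL-4 Hdac9 +1055 held 108 to 207, above both UT libraries in all 8, without a call. Hdac9 -3139 fell from 156 and 144 to 51 and 32 at 1 h of LPS, by a difference of -1.77 (SE 0.24).

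**Figure D3:**
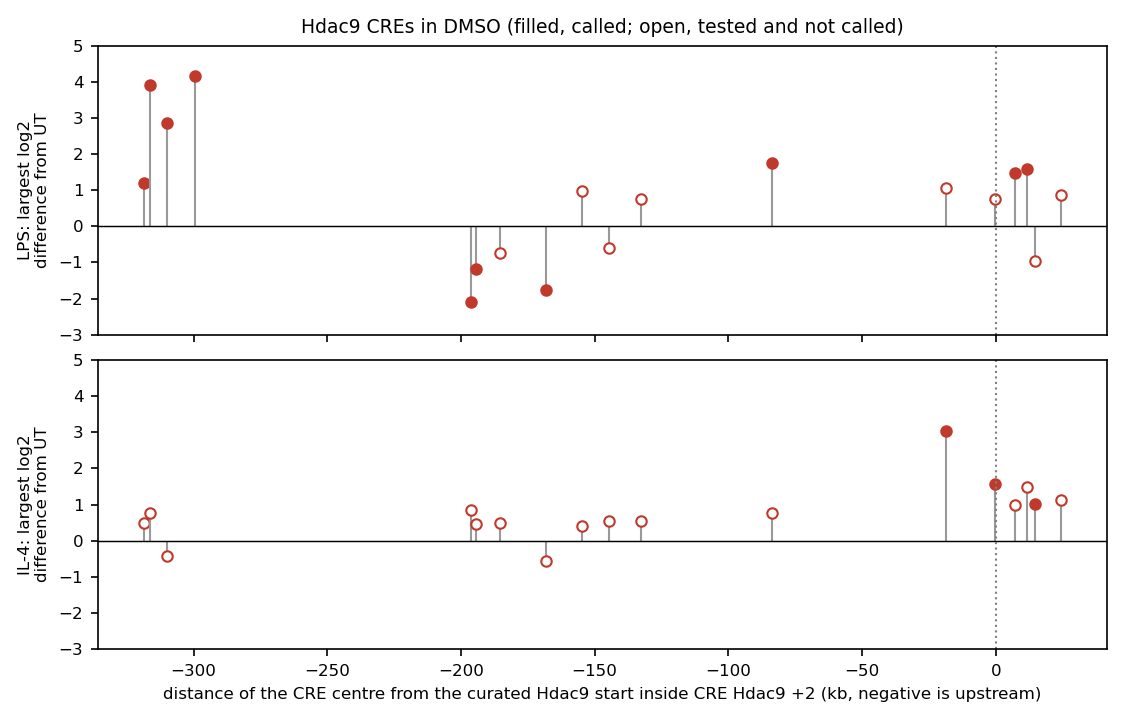
Largest log2 difference from UT (y axis) of each tested Hdac9 CRE in DMSO after LPS (top) and IL-4 (bottom), by distance in kb from the curated start of the short Hdac9 transcript (dotted line; negative is upstream). Filled points were called; the 4 called gains farthest upstream after LPS lie between -319 and -299.5 kb. The 3 called gains after IL-4 lie between -18.5 and 14.8 kb, a stretch that also holds the LPS gains at 7.27 and 11.6 kb.

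Set against each other at the same times, the 2 stimuli differed at 34 of 66 members, with LPS above IL-4 in 11 (16.7%) and below it in 23 (34.8%), against 29.2% and 29.2% of 50587 CREs. LPS was lower at 5 of 7 Kdm6b CREs tested and higher at Kdm6b +611. The widest differences in each direction were both at Hdac9, 3.39 (SE 0.32) at Hdac9 +8867 at 2 h and -2.93 (SE 0.22) at Hdac9 +1055 at 30 min. At Kdm6b -8874 LPS lay below IL-4 by -2.02, -1.44, -2.05 and -2.17 at the 4 times (SE 0.19 each), and at Ep300 -17350 by -1.86 at 30 min and -1.50 at 4 h (SE 0.23 each).

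Likeness was measured for the Kdm6b CRE with the largest LPS difference, Kdm6b -692, as Pearson's r of log2(value + 5) over the 18 DMSO libraries, with 11084 promoter CREs as candidates. The most alike were the promoters of Cass4 (r = 0.937), Plec (0.935), Trio (0.934), Tbc1d2b (0.931) and Cd44 (0.930). These values are a description over libraries that share their depth and scaling, and the list was fixed by rank.

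Other genes of histone acetylation and H3K27 methylation were read from 6 lists, 38 genes with 175 CREs by the same rule. After LPS, 37 of 165 tested rose (22.4%) and 39 fell (23.6%), against 29.0% and 24.6% of all CREs, and after IL-4 12 of 163 rose (7.36%) and 9 fell (5.52%), against 13.6% and 11.0%. The genes of PRC2 and its partners, the complex of EZH1 and EZH2, had 10 of 27 CREs higher and 3 lower after LPS. The other acetyltransferases had 12 higher and 16 lower of 65, the other deacetylases 6 and 2 of 28, the acetyl-lysine readers 5 and 3 of 17, and the other H3K27 demethylase, Kdm6a, none of 2. The partners of class IIa deacetylases, MEF2 factors and corepressors, had 4 higher and 15 lower of 26. After IL-4 PRC2 and its partners had 2 higher and 1 lower of 25, the other acetyltransferases 7 and 5 of 66, the readers 3 higher of 17 and the class IIa partners 3 lower of 26, with no call among the other deacetylases (27 tested) or at Kdm6a (2 tested).

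The time courses were then read over the 58 CKIs without DMSO, with the CKI as a term. After LPS, 5 members (6.8%) rose and 13 (17.8%) fell of 73, against 15.4% and 13.5% of 59163 CREs, and after IL-4 2 (2.7%) rose and none fell, against 5.33% and 3.50% of 59150. All of these 20 calls but Kdm6b -3753, lower after LPS, were among those of the DMSO libraries. All 33 and 12 calls made in DMSO had the same sign over the CKIs, but this share was not counted over all called CREs. Both IL-4 calls were the CREs already described: Kdm6b -8874 rose by 1.51 at 2 h (SE 0.05) and Hdac9 -17979 by 2.00 at 2 h (SE 0.13). The LPS gains were at Hdac9 -7821 (2.20, SE 0.10), Hdac9 +8867 (2.15, SE 0.11), Hdac9 -1699 (1.56, SE 0.09), Hdac7 -5820 (1.18, SE 0.11) and Kdm6b +611 (1.07, SE 0.05). In 62 LPS 30 min libraries of the CKIs Kdm6b +611 held 541, 1372 and 2234 (lowest, median and highest), against 498, 694 and 963 in 73 UT libraries. Kdm6b -8874 held 37, 82 and 146 in the UT and 115, 223 and 307 in 60 IL-4 30 min libraries.

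For single CKIs the response was taken as the mean of the stimulated libraries minus UT. The LPS response of Hdac9 -7821 was above 0 in 58 of 58 CKIs, from 0.05 with Afatinib, an EGFR family inhibitor, to 2.84 with Pacritinib, a JAK inhibitor, and it was 2.64 (SE 0.45) in DMSO. Hdac5 -15629 had an LPS response below 0 in all 58, from -2.43 with XL413 to -0.70 with Vatalanib. A further 6 members had LPS responses below 0 in all 58: Ezh1 -5899, Hdac4 -20767, Hdac4 -2323, Hdac5 +10908, Hdac7 +907 and Hdac7 +23887. The IL-4 response of Kdm6b -8874 was above 0 in all 58, from 0.79 with Filgotinib to 2.30 with VX702, and that of Hdac9 -17979 in 57, from -0.25 with SGI1776 to 3.52 with PF04691502. Ep300 -17350 had an LPS response below 0 in 57 of 58, and Kdm6b +611 one above 0 in 49. How many of all CREs kept 1 sign over the CKIs was not counted, so these counts do not set the members apart.

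**Figure D4:**
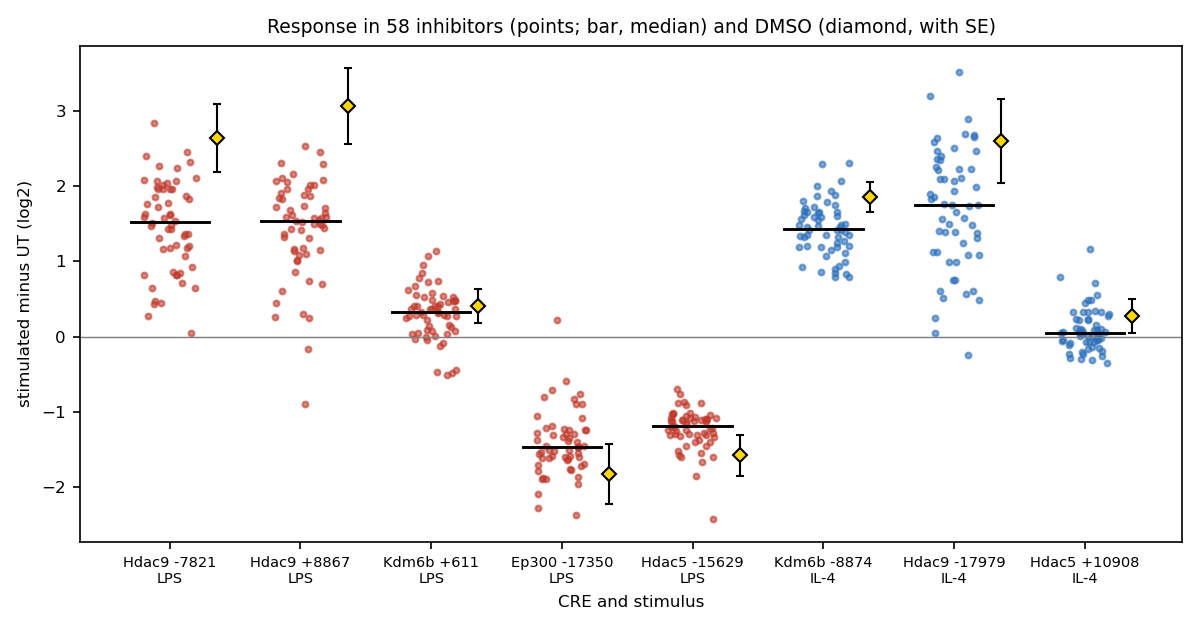
Response to the stimulus (mean of stimulated libraries minus UT, log2 scale) of 8 CREs in each of 58 CKIs (points; bar, median) and in DMSO (diamond with SE), LPS in red and IL-4 in blue. Points spread around medians of 1.53 at Hdac9 -7821, -1.47 at Ep300 -17350 and 1.44 at Kdm6b -8874, and all 58 lie above 0 at Hdac9 -7821 and Kdm6b -8874.

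Levels in single CKIs were compared with DMSO in a fit over all LPS and UT or all IL-4 and UT libraries, as 4234 pairs of a member and a CKI in each. In the LPS fit 1401 pairs (33.1%) were higher and 132 (3.12%) lower than DMSO, against 32.3% and 4.04% of all pairs, and in the IL-4 fit 1632 (38.5%) and 232 (5.48%), against 36.2% and 3.03%. After quantile normalization the counts were 71 and 117 in the LPS fit and 121 and 240 in the IL-4 fit. Split into 5 equal classes by DMSO level, the lowest class of CREs had 73.8% of all LPS pairs higher, and in the highest class 0.959% were higher and 15.6% lower, with 77.4%, 0.47% and 12.4% among members. Contrast, the median of the strongest 10% of CREs over that of the weakest 10%, was 53.0 to 134 in DMSO and 3.34 to 67.2 in CKI libraries, so a CKI and the difference between these sets of libraries cannot be told apart here. Hdac9 -17979, in the class next to the highest by its DMSO level over UT and IL-4, was below DMSO in 33 CKIs of the IL-4 fit and above it in none, with a median difference of -0.97, where 4.16% of all pairs of that class were lower. At 2 h of IL-4 it held 0, 45 and 102 (lowest, median and highest) in 58 CKI libraries, against 105 and 113 in DMSO. This CRE was named for its large IL-4 gain in these same DMSO libraries, which also set its class. Values below DMSO are therefore partly built into the choice, and an effect of the CKIs on it was not tested apart from that.

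Each CKI was therefore also set against the other CKIs of its run, 1 of 6 consecutive blocks of columns in the table that share no CKI. In the LPS fit 32 pairs were higher and 11 lower, against 0.742% and 0.406% of all pairs, and in the IL-4 fit 37 and 31, against 0.848% and 0.400%. The p38 inhibitor PH797804 gave 25 higher and 8 lower of the LPS pairs and 32 and 1 of the IL-4 pairs, and without its shallow LPS 30 min library 32 and 3 of the LPS pairs. After quantile normalization the counts over all CKIs were 8 and 17 in the LPS fit and 13 and 37 in the IL-4 fit. At Kdm6b +611, PH797804 lay below its run in the LPS fit by a difference of -0.76 (SE 0.14, limma adjusted p = 3.34e-06), and this was the sole call at that CRE. The value includes the shallow LPS 30 min library, taken at the time when this CRE peaked in DMSO. The difference at this CRE without that library is not given here. Without PH797804 the LPS fit had 7 higher and 3 lower, of which 6 higher were with Pacritinib, and the IL-4 fit had 5 and 30, of which 10 lower were with BGT226 and 6 lower with Omipalisib. Both BGT226 and Omipalisib are inhibitors of PI3K and mTOR.

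Responses were likewise set against the run. In the LPS fit 2 pairs were higher and 6 lower, against 0.0574% and 0.119% of all pairs, and in the IL-4 fit 6 and 3, against 0.108% and 0.0988%. Of these 17 pairs, 8 were with Talmapimod and 3 with PF04691502. A response of a single CKI rests on 1 or 2 UT libraries, which its LPS and IL-4 responses share. The 17 pairs are therefore not independent of each other. In the LPS fit 6 CKIs, XL413 among them, and in the IL-4 fit 5, Talmapimod and Lenvatinib among them, had no library at 1 or more of the 4 times, so their responses average fewer times, with the time as a term in the fit.

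Compounds with a shared target were taken as 4 families and compared with all others, with the run as a term, in 8 comparisons. The PI3K and mTOR family, Apitolisib, AZD2014, BGT226, Omipalisib and PF04691502, was lower than the others at 8 of 73 members in the IL-4 fit, all of them among the 49 CREs of the class IIa genes. At 2 it was higher, Ezh1 +30 and Kdm6b -692, against 4.07% and 1.13% of 59147 CREs. Lower were Hdac5 +7341, +10908 and +20735, Hdac4 -20767 and +8849, Hdac7 +835 and +23887, and Hdac9 +2. The family difference at Hdac5 +10908 was -0.47 (SE 0.08, adjusted p = 8.75e-05), and at Hdac5 +7341 -0.42 (SE 0.07, adjusted p = 8.64e-05). The 5 compounds were unequal: at Hdac5 +10908, against their runs, BGT226 stood at -1.03 (SE 0.13), Omipalisib at -0.63 (SE 0.13), Apitolisib at -0.38 (SE 0.12), PF04691502 at -0.27 (SE 0.12) and AZD2014 at 0.08 (SE 0.13). Without BGT226 3 members were called, Ezh1 +30 and Hdac5 +7341 and +10908, and without Omipalisib 6 were, the 3 of Hdac5, Hdac4 -20767, Hdac7 +23887 and Hdac9 +2. In the LPS fit the family was lower at Hdac4 -20767 (-0.27, SE 0.06), Hdac7 +835 (-0.29, SE 0.07) and Hdac9 +1074 (-0.40, SE 0.11) and higher at none, against 2.42% and 0.766% of CREs. Without Omipalisib 1 of these calls was left.

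**Figure D5:**
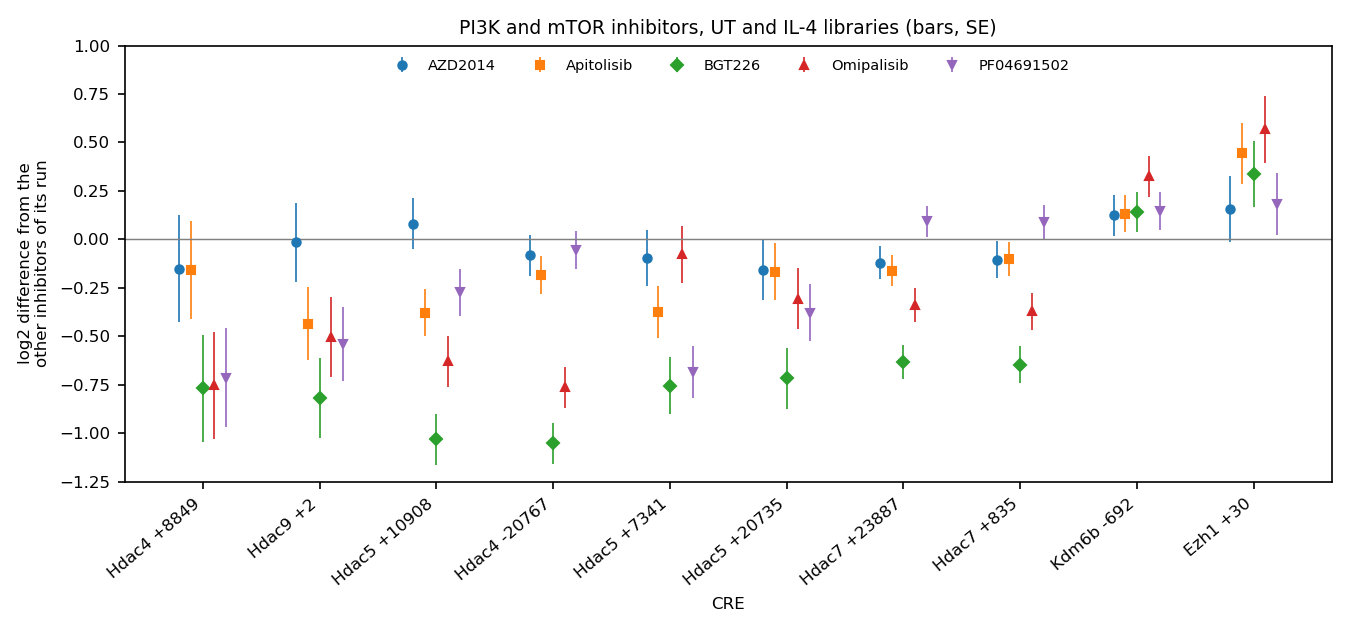
Difference of each PI3K and mTOR inhibitor from the other CKIs of its run (log2, y axis; bars, SE) at the 10 member CREs called for the family in the IL-4 and UT libraries (x axis). BGT226 is lowest at all 8 lower CREs, down to -1.05 at Hdac4 -20767, and AZD2014 stays between -0.16 and 0.16.

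The p38 family, Losmapimod, PH797804, Talmapimod and VX702, gave 9 members higher and 2 lower in the LPS fit, against 8.93% and 1.67% of CREs. Without PH797804 no member was called, without Talmapimod 19 were higher and 5 lower, and without the term for the run none was called. The JAK family and the family of MEK and ERK inhibitors gave no call among members in either fit, and p38 none in the IL-4 fit, with adjusted p by limma from 0.194 to 1 as the smallest per family. Over all CREs these 5 comparisons gave 2 calls, both lower with JAK inhibitors in the IL-4 fit (0.00338%). At an unadjusted p under 0.05, 2 and 2 of 73 members were found for JAK, 15 and 3 for MEK and ERK, in the LPS and IL-4 fits, and 10 for p38 in the IL-4 fit. JAK kinases carry the IL-4 signal to STAT6, and the IL-4 response of Kdm6b -8874 was 0.79 to 1.59 (median 1.42) in 6 JAK inhibitors and 0.80 to 2.30 (median 1.45) in the other CKIs. That of Hdac9 -17979 was 0.52 to 1.99 (median 1.17) in the JAK inhibitors and -0.25 to 3.52 (median 1.80) in the others, so the ranges overlapped at both CREs. Compounds were given at 1 concentration each, chosen by the study per compound, and doses were not compared.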

How the data were processed

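H3K27ac ChIP-seq was measured in 564 BMDM libraries. Per the methods, the authors trimmed single-end reads, mapped them to mm10 with ShortStack and scaled each library by peaks that did not vary. The submitters' processing notes also name Bowtie and SAMtools. The deposited values, normalized read counts rounded to whole numbers by the authors, have the unit score here, so no count model was used. Raw depth is unknown, and reads in CREs were estimated from the spacing of low values, for counting error only.

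Groups came from the treatment in the titles. The label of UT names 4 h without stimulus and its title time 0. A suffix b marks a further library of a group. The test was that of limma 3.58.1 (R 4.3.3, moderated variances with a trend) on log2(value + 5), which understates changes of low CREs, over all CREs with a mean of at least 10 in the fit and with Benjamini-Hochberg adjustment over all of them. The limma test stands in for the impulse model of the study. DMSO time courses and LPS against IL-4 were called at an adjusted p under 0.01 and a log2 difference over 1. A CKI was called, with time as a term and adjusted within the CKI, at 0.05 and 0.5, and a family at 0.05, with each CKI averaged first, the run as a term and the variance trend over the mean level of the CRE. As most CKI groups hold 1 library, all compounds share the estimate of the spread.

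Named in full were, for each gene, the promoter CRE and the CREs with the largest LPS and IL-4 differences, and others were named after their values were seen. Members, lists and families were chosen with earlier results of these data known. The scripts were tested on simulated data. Sequences are RefSeq GRCm38.p6. Alternatives were another pseudocount, filter, scaling, window, transcript set, reference and left-out libraries.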

Additional observations from a re-analysis of the deposited data

Results flagged for a closer look

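In 17 pairs of a member CRE and a CKI, the response to the stimulus differed from that of the other CKIs of the same run by the interaction test of limma (log2 differences of responses follow, CKI minus run). Of these, 8 concerned LPS. The LPS response was higher at Hdac7 -5271 with AMG208 (2.55) and at Hdac5 +20735 with PF04691502 (1.97). It was lower at Kdm6b +611 with PH797804 (-1.30), where the response itself was -0.51 (SE 0.32), and lower with Talmapimod at Kdm6b -11882 (-2.46), Ezh1 +14343 (-2.84), Crebbp +13174 (-2.03), Hdac9 -1699 (-1.72) and Hdac9 +5667 (-2.49). For IL-4 it was higher with Afatinib at Kdm6b -11882 (2.53) and Ep300 -17350 (1.42), with MK2461 at Hdac5 +13127 (2.36), with PF04691502 at Hdac4 +8849 (2.79) and Hdac5 +20735 (1.93), and with Talmapimod at Ep300 +7998 (1.70). It was lower with Lenvatinib at Hdac4 -20767 (-0.97) and with Talmapimod at Hdac9 +5667 (-2.68) and Hdac9 +10260 (-2.14). The adjusted p lay between 0.000391 (Hdac5 +20735 with PF04691502, IL-4) and 0.0486, and the shares of all pairs called were 0.0574% to 0.119%. Groups of 1 or 2 libraries were too small for a test of single outlying libraries. Talmapimod and Lenvatinib had no IL-4 library at 4 h, so their IL-4 responses rest on 3 times. The LPS and IL-4 responses of a CKI subtract the same UT libraries. Hdac5 +20735 with PF04691502 and Hdac9 +5667 with Talmapimod, flagged for both stimuli, are therefore not separate observations. The causes of the differences in the 17 pairs were not tested.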

How the results depend on the processing

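Of 569 alternative values of single CREs over 44 results, none reversed, 552 kept their direction and side of the threshold, 14 lost the call and 3 gained it; the 14 were all at Crebbp +13174 or Hdac7 -1940 after LPS. The 3 were Hdac9 +2 after LPS (without the second 4 h library), Hdac7 -1940 after IL-4 (quantile normalization) and Ep300 -17350 after IL-4 (without the first 30 min library). Counts moved more. With a mean of at least 50, 21 members were called after LPS (33 as reported), 4 after IL-4 (12) and 17 between LPS and IL-4 (34), from 29 to 31 tested. Within 10 kb of a start these counts were 19, 6 and 21, and with curated starts alone 18, 5 and 20, since fewer CREs were tested. A pseudocount of 20 gave 4 after IL-4, and a log2 difference over 0.5 gave 21. Over the CKIs, lowering the log2 difference to 0.5 raised the LPS count to 45 (18 as reported) and the IL-4 count to 26 (2), and a pseudocount of 1 gave 5 after IL-4. Pairs against DMSO, 1533 in the LPS and 1864 in the IL-4 fit, became 188 and 361 after quantile normalization, 43 and 68 against the run and 116 and 199 against the mean of all CKIs. The 8 changed LPS responses became 3 after quantile normalization, 15 against DMSO and 13 with a pseudocount of 1, and the 9 IL-4 responses became 21 with that pseudocount. For p38 in the LPS fit (11) no term for the run gave 0, and quantile normalization 1. For PI3K and mTOR in the IL-4 fit (10) no term for the run gave 6. Why these counts moved was not tested, unless fewer CREs were tested.

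Leaving out 1 DMSO library at a time gave 27 to 33 members after LPS, 7 to 14 after IL-4 (7 without the second UT library) and 31 to 35 between the stimuli. For pairs against DMSO, all DMSO libraries with the same replicate number were left out together. That gave 1087 to 1246 LPS pairs and 1502 to 1526 IL-4 pairs. Leaving out 1 compound of a family gave 0 to 24 members for p38 in the LPS fit (0 without PH797804, 24 without Talmapimod), 1 to 3 for PI3K and mTOR in the LPS fit (1 without Omipalisib) and 3 to 12 in the IL-4 fit (3 without BGT226, 6 without Omipalisib). With the replicate block the counts were 33, 12 and 35, with 1532 and 1860 pairs. The DMSO replicate numbers did not pair the libraries: over 36 pairs of groups the correlation of same-numbered deviations lay between -0.0873 and 0.0664, and 0 exceeded 0.1. The median of all CREs against UT lay between -0.03 and 0.09 as scaled and between -0.09 and -0.02 after quantile normalization. LPS minus IL-4 at 30 min had a median of -0.12 over all CREs. CREs with few reads, such as Hdac9 -17979 in UT, are limited by depth.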

Other observations

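Promoter CREs of genes around these enzymes, from lists of partners, readers and other deacetylases, showed further changes after LPS in DMSO (means of 2 libraries, normalized read counts). Each was the CRE nearest to a start of the listed gene, within 1 kb. Whether another gene also starts at such a CRE was not checked. The promoters of Mef2a, Mef2c and Mef2d, whose products bind class IIa deacetylases, all fell. Mef2d went from 973.5 to 946.5 at 30 min and 372 at 2 h (-1.39, SE 0.11, limma adjusted p = 1.5e-14), while Mef2c was lowest at 30 min, at 202.5 against 521 in UT (-1.34, SE 0.13, adjusted p = 4.15e-11). Mef2a went from 827 to 388 at 2 h (-1.09, SE 0.12). The Ncor1 promoter, at 452 in UT and 324 at 30 min, was not called (-0.48, SE 0.12).

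The CRE at the start of Sirt2, a deacetylase that depends on NAD, had the largest promoter gain in these lists. It went from 212 in UT to 1187 at 30 min and 712 at 4 h (2.46, SE 0.10, limma adjusted p = 8.59e-20), and held 199 to 242 in the IL-4 means. The promoter of Aebp2, a PRC2 partner, went from 380.5 to 1173 at 1 h (1.61, SE 0.10), and that of Phf19, another, from 155.5 to 361 at 30 min and 105 at 4 h (1.21, SE 0.17). The promoters of Phf1 and Rbbp7, of the same list, fell, from 187.5 to 84.5 at 2 h (-1.11, SE 0.19) and from 130.5 to 53 at 2 h (-1.21, SE 0.22), so 2 of its 9 promoters rose and 2 fell. Kat6b, an acetyltransferase, fell from 206.5 to 91.5 at 2 h (-1.14, SE 0.20). Brd3, an acetyl-lysine reader, fell from 176 to 83.5 at 2 h (-1.02, SE 0.21). After IL-4 the promoter of Kat2b, an acetyltransferase, fell from 43.5 to 14.5 at 2 h (-1.33, SE 0.32, adjusted p = 0.00364), and it was the sole promoter of these lists called after IL-4.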
